A study of Homo sapiens with 9 samples.

Results

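Transcripts that set the GPR39 cells given cumate apart from both other groups of the series were examined here. A gene was counted as apart when the log2 signals of all 3 cumate arrays lay above, or all lay below, those of the 6 other arrays. By this rule 730 of 11916 named genes tested (6.13%) were apart, 534 with the cumate arrays above the others (4.48%) and 196 with the cumate arrays below them (1.64%). Beside the rule, the mean of the cumate group was set against the average of the means of the other groups in 1 limma fit of all 9 arrays, and this difference on the log2 scale is called the cumate contrast below.

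RNA from HEK293, an established human embryonic kidney line bought from ATCC and kept in DMEM with 10% FBS, was hybridised to 9 Affymetrix arrays, 3 for each of 3 groups. The mock group consisted of naïve mock-control cells without cumate. The cumate group was labelled as GPR39 Overexpressed and received cumate at 0.03 mg/mL. The agonist group was also labelled as GPR39 Overexpressed and received TC-G-1008 at 1 uM. Whether the agonist group was given cumate as well is not in the labels, nor are an exposure time or a clone. No mock cells with cumate and no uninduced receptor cells are among the groups, so the receptor, cumate and the cell derivative cannot be told apart in these comparisons. The replicates are called biological without mention of separate cultures, so the p-values reflect only how these arrays vary, which may in part be technical.

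GPR39 is a G protein-coupled receptor that responds to extracellular zinc, and TC-G-1008 is a synthetic agonist of it. Receptors of this kind raise second messengers and drive kinase signalling, which in cultured epithelial cells is read out by immediate-early genes such as FOS and by targets of the transcription factors SRF and YAP. Cumate is a small aromatic carboxylic acid that releases the bacterial repressor CymR from its operator and so turns on a transgene placed behind that operator in mammalian cells.

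The probe set for GPR39 itself did not show the transgene: its log2 signal lay between 2.43 and 2.65 on all 9 arrays, below or near the 40th percentile of each array (2.63 to 2.70), and it was not tested. It therefore checks none of the group labels. Of the 12 defining genes of HEK293, 8 have a named probe set, among them IRS4, LIN28B and PAX2, and all 8 were above the 40th percentile on every array. Of the leukocyte markers, CD68, LAPTM5 and CD14 were above it on every array out of 5 named, and the mean level of the 5 ran from 3.49 to 3.59 in the mock group, from 3.78 to 3.94 in the cumate group and from 3.94 to 4.04 in the agonist group. The part of this shift in the results was not tested, and in RNA from whole cultures a change in cell number and a change in RNA per cell cannot be told apart. Of the fibroblast, endothelial and hepatocyte markers, 2 of 4, 2 of 5 and 2 of 8 named genes were above the 40th percentile on every array, and their mean levels lay between 2.76 and 3.03 in all groups.

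On 1 of the first 2 principal components mock replicate 1 stood apart from the other mock arrays and close to the cumate arrays. On the first component, with 31.7% of the variance, it scored −26.7, nearer to the other mock arrays (−37.5 and −38.4) than to the cumate arrays (−4.97 to −2.69). On the second principal component, which held 20.4% of the variance, mock replicate 1 scored 22.0, the cumate arrays 24.2 to 27.3, the other mock arrays −22.9 and −38.7, and the agonist arrays −23.3 to −5.20. Over the probe sets tested, its mean correlation with the cumate arrays was 0.984, against 0.979 with the other mock arrays. Because the rule asks for a gap to every other array, this array bears on many of the genes apart. It was the nearest other array for 40.7% of the 1070 probe sets with the cumate arrays above (3.21% of those tested) and for 41.7% of the 715 below (2.14%). Without it, 790 genes lay above and 337 below.

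**Figure D1:**
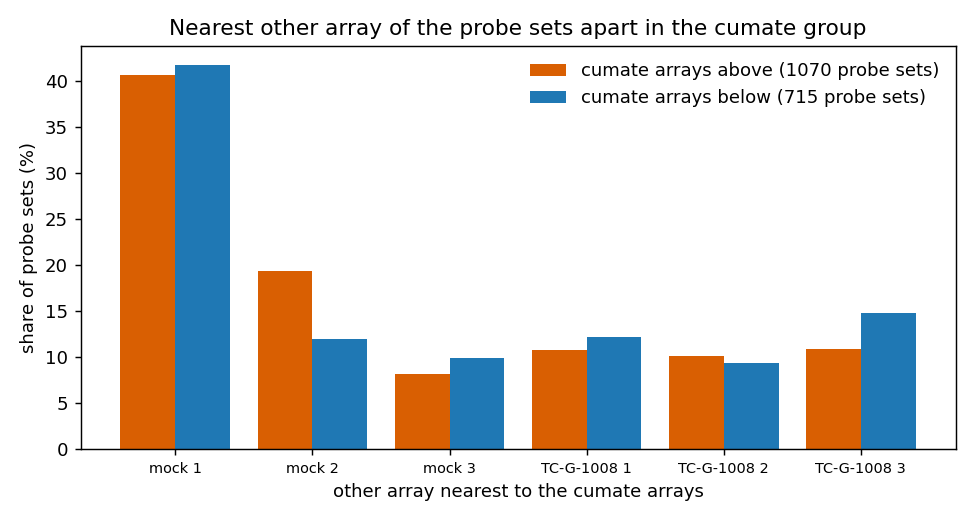
Share of the probe sets apart in the cumate group (vertical axis, percent) for which each of the 6 other arrays (horizontal axis) lay nearest to the cumate arrays; orange bars are probe sets with the cumate arrays above and blue bars those with the cumate arrays below. Mock replicate 1 has the tallest bar in both directions, at 40.7% and 41.7%.

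Fewer probe sets were called or apart for the cumate group than for either other group. Its contrast passed an adjusted p of 0.05 for 343 of 33376 probe sets (1.03%), 198 higher (0.593%) and 145 lower (0.434%), and for 159 of the named genes (1.33%), 108 higher (0.906%) and 51 lower (0.428%). The same contrast called 2910 probe sets (8.72%) for the mock group and 4964 (14.9%) for the agonist group. By the rule on single arrays, 1785 probe sets (5.35%) were apart in the cumate group, 3877 (11.6%) in the mock group and 6557 (19.6%) in the agonist group. Both counts can be low for a group that lies between the others. Opposite differences then cancel in the contrast, and the arrays of that group are not outermost. Against each group alone, the cumate group differed from mock at 391 probe sets (1.17%) and from the agonist group at 3025 (9.06%). Leaving out mock replicate 1 raised the count of the cumate contrast to 776 probe sets and turned its balance, to 293 higher and 483 lower, and leaving out cumate replicate 1, 2 or 3 lowered it to 53, 48 and 59. Leaving out mock replicate 2 or 3 gave 109 and 139, and leaving out agonist replicate 1, 2 or 3 gave 158, 155 and 152. Lower calls outnumbered higher ones in each of these fits except that without agonist replicate 2 (82 higher and 73 lower), so which direction holds more calls is not settled.

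The differences that separated the cumate group from both other groups were small. For each gene apart, the smaller of its differences from mock and from the agonist group is called here the difference from the nearer group. Its median was 0.17 on the log2 scale for the 534 genes above and 0.21 for the 196 below. It exceeded 0.5 for 21 of the genes above and 8 below, and exceeded 1 for none. The nearer group was mock for 346 of the genes above and 116 of those below. When a gene had to differ from both groups in the same direction, with the larger of its 2 p-values adjusted over all probe sets, limma called 0 probe sets and 0 genes, the lowest adjusted p being 0.160; 989 probe sets and 334 genes had an unadjusted value under 0.05. The cumate contrast is more permissive, since it can pass when 1 of the other groups alone is far away.

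A call of the contrast and the rule on single arrays often picked different genes. Among the 534 genes above, 64 passed the contrast, and 21 of the 196 below did; since both rest on the same arrays, these counts describe the sets and support nothing. Of the 108 genes called higher, 59.3% were apart, and of the 51 called lower, 41.2%. The other 74 called genes were not apart, and in 50 of them the cumate mean lay between the means of the other groups. ANKRD1, which encodes a cardiac ankyrin repeat protein and is a YAP target, had the highest contrast of all genes, 2.43 ± 0.16 (SE), with means of 4.31 in mock, 9.52 in cumate and 9.89 in agonist arrays. MMP10, a secreted matrix metalloproteinase, had a contrast of −1.70 ± 0.07 with means of 2.86, 3.88 and 8.30. Neither gene was apart in the cumate group, although both passed the contrast with adjusted p-values of 0.00127 and 0.000335.

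**Figure D2:**
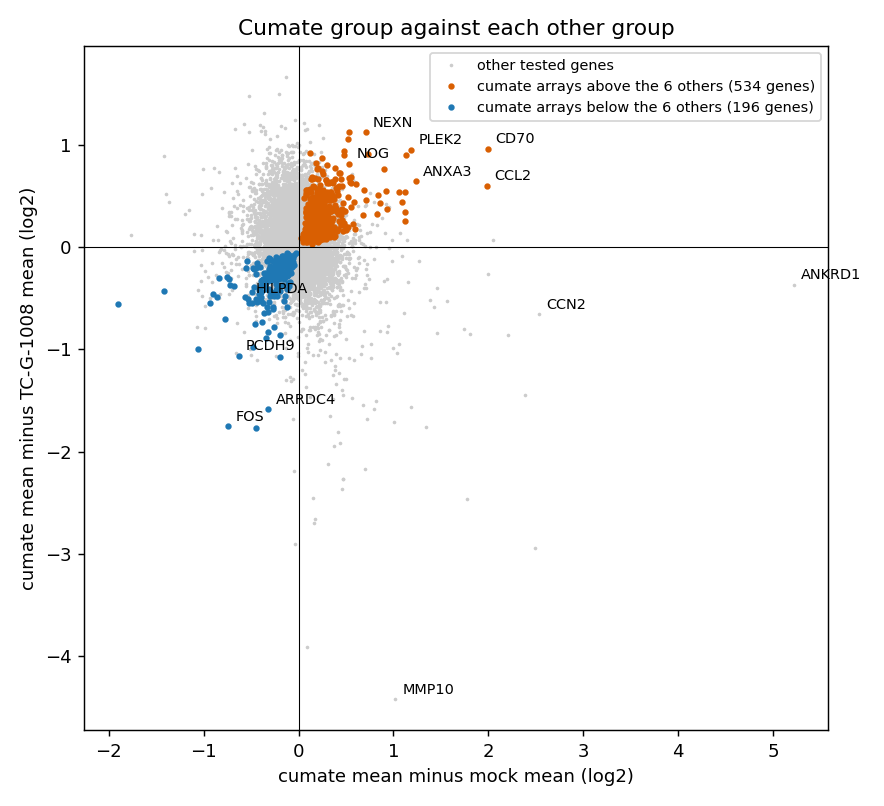
Cumate mean minus mock mean (horizontal axis, log2) against cumate mean minus agonist mean (vertical axis, log2) for each tested gene; both differences share the cumate arrays. Orange points are the 534 genes with the cumate arrays above the 6 others and blue points the 196 below; both sets crowd near the origin, with CD70 the farthest from both groups among the genes above, while ANKRD1 and MMP10 lie far out on 1 side only.

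CD70 had the largest difference from the nearer group among the named genes above. It encodes a ligand of the tumour necrosis factor family that binds CD27 on lymphocytes. Its log2 signals were 5.41, 5.42 and 4.98 in the mock arrays, 7.24, 7.43 and 7.14 in the cumate arrays and 6.36, 6.22 and 6.35 in the agonist arrays. The groups did not overlap, and the cumate arrays were higher than every other array by at least 0.785. The cumate contrast was 1.48 ± 0.12 (SE; adjusted p = 0.00266, limma), with means of 5.27 ± 0.25 in mock, 7.27 ± 0.15 in cumate and 6.31 ± 0.07 in agonist arrays (SD, n = 3 each). The difference from the agonist group, 0.96 ± 0.13 (SE), equals 1.95-fold.

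CCL2, a chemokine that attracts monocytes, read 4.33, 4.26 and 4.73 in the mock arrays, 6.32, 6.47 and 6.49 in the cumate arrays and 5.87, 6.11 and 5.50 in the agonist arrays. The order of the groups was that of CD70, but the step from the agonist to the cumate group was narrower. CCL2 had a contrast of 1.29 ± 0.15 (adjusted p = 0.0113); the cumate group was 1.99 ± 0.17 above mock, while its 0.60 ± 0.17 over the agonist group did not pass by itself (adjusted p = 0.0745). ICAM1, the adhesion molecule that leukocyte integrins bind, had the same order of groups, with a contrast of 0.73 ± 0.10 (adjusted p = 0.0177) and 0.34 ± 0.11 over the agonist group (adjusted p = 0.108). CD70, CCL2 and ICAM1 were the 3 members called higher among the 9 tested genes of the NF-kB and inflammatory list, with 0 called lower. They are 33.3% of the list, where 0.906% of all tested genes were called higher. The list was chosen with earlier results of these data known, so its shares are a description. All 3 were also apart, where 4.48% of all tested genes lay above; the other members were not apart, and RELB, a subunit of NF-kB, had a contrast of 0.06 ± 0.11. CXCL8, the chemokine interleukin-8, lay 2.49 above mock and 2.95 below the agonist group. The median contrast of the list was 0.06, against 0.03 over all tested genes. Its median difference was 1.12 from mock and −0.52 from the agonist group, where all tested genes had 0.02 and 0.03. The small median contrast thus joins opposite differences from mock and from the agonist group.

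Genes of the actin cytoskeleton, membranes and adhesion were also among the 20 called genes above with the largest difference from the nearer group. PLEK2, a pleckstrin family protein of actin remodelling, read 5.65, 5.57 and 5.35 in mock, 6.88, 6.72 and 6.53 in cumate and 5.50, 5.81 and 5.95 in agonist arrays. Mock and agonist arrays overlapped, and the cumate arrays stood clear of both. Its contrast was 1.07 ± 0.12 (adjusted p = 0.0113), with 1.18 ± 0.14 over mock and 0.95 ± 0.14 over the agonist group.

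NEXN encodes nexilin, an actin-binding protein of adhesion sites and muscle Z-discs. Its signals were 5.76, 5.70 and 5.76 in mock, 6.47, 6.55 and 6.33 in cumate and 5.34, 5.32 and 5.31 in agonist arrays. Here the agonist group was the lowest of the 3, so that the nearer group was mock. The contrast was 0.92 ± 0.06 (adjusted p = 0.00160). The actin-bundling protein gene LIMA1 had the same order of groups, with a contrast of 0.56 ± 0.07 (adjusted p = 0.0185) and 0.45 ± 0.09 over mock (adjusted p = 0.0572). RRAS, a small GTPase that acts on integrins, likewise had the agonist group lowest, with a contrast of 0.71 ± 0.09 (adjusted p = 0.0150). Its 0.48 ± 0.10 over mock did not pass by limma (adjusted p = 0.0830).

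ANXA3, a calcium-dependent phospholipid-binding annexin, was measured with little spread. It read 6.75, 6.77 and 6.58 in mock, 7.90, 7.91 and 7.99 in cumate and 7.31, 7.30 and 7.27 in agonist arrays. The agonist group stood between the others without overlap. Its contrast of 0.94 ± 0.06 had the lowest adjusted p among the named genes above, 0.00127. The tight-junction protein gene CLDN1 had a contrast of 0.65 ± 0.11 (adjusted p = 0.0463) and the extracellular matrix protein gene EFEMP1 one of 0.59 ± 0.07 (adjusted p = 0.00981). CLDN1 did not pass against the agonist group by limma (0.44 ± 0.13, adjusted p = 0.0799), and its call was lost in 11 of 13 alternatives. ADGRE5, an adhesion G protein-coupled receptor also known as CD97, closed this group at 0.48 ± 0.08 (adjusted p = 0.0409). Its 0.40 ± 0.09 over mock did not pass by limma (adjusted p = 0.0949), and its call was lost in 9 of 13 alternatives.

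Regulators of signalling and transcript processing made up further members of the 20. NOG, which encodes the secreted BMP antagonist noggin, read 5.87, 5.91 and 5.91 in mock, 6.42, 6.45 and 6.44 in cumate and 5.66, 5.49 and 5.71 in agonist arrays. All 3 groups were separate, with the agonist group lowest. Its contrast was 0.68 ± 0.06 (adjusted p = 0.00391), and it was the 1 member called higher among 7 tested genes of the BMP and TGF-beta list, whose median contrast was −0.06 with 0 called lower. This is 14.3% of the list, against 0.906% of all tested genes.

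RCAN1, a feedback inhibitor of the calcium-dependent phosphatase calcineurin, had a contrast of 0.83 ± 0.11 (adjusted p = 0.0153) and lay 1.12 ± 0.12 above mock and 0.54 ± 0.12 above the agonist group. MBNL2, a splicing regulator of the muscleblind family, had a contrast of 0.68 ± 0.08 (adjusted p = 0.0103). SAMD9, an interferon-inducible restriction factor, had a contrast of 0.79 ± 0.10 (adjusted p = 0.0138), and MLKL, the executioner of necroptosis, one of 0.46 ± 0.07 (adjusted p = 0.0241). The 0.52 ± 0.11 of SAMD9 over mock did not pass by limma (adjusted p = 0.0809). The remaining genes of the 20 were RWDD2B, SMIM19, ANKEF1, MRM1 and CREBL2, with contrasts from 0.50 to 1.02. MRM1 is a mitochondrial ribosomal RNA methyltransferase. Against mock, ANKEF1, MRM1 and CREBL2 did not pass by limma (adjusted p = 0.0587, 0.0583 and 0.104). In all 20 genes the cumate arrays were the highest, and mock and agonist arrays changed places from gene to gene.

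**Figure D3:**
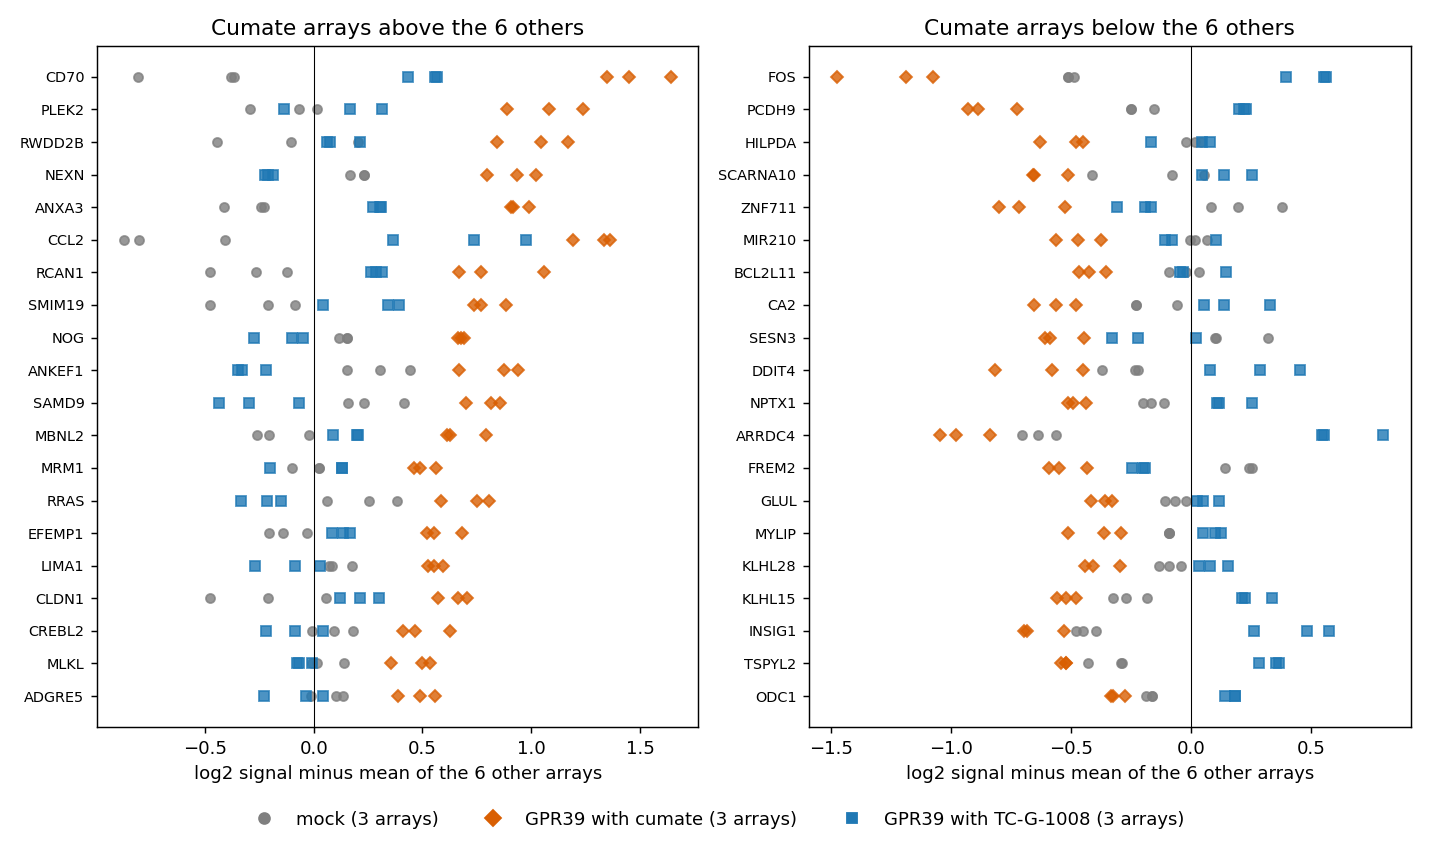
Log2 signal of each array minus the mean of the 6 mock and agonist arrays (horizontal axis) for the 20 named genes with the cumate arrays above (left) and the 20 with the cumate arrays below (right); grey circles are mock, orange diamonds cumate and blue squares agonist arrays. By the choice of genes the 3 orange diamonds lie outside the other 6 points in every line; the agonist squares are next to them for CD70 and ANXA3, and the mock circles for NEXN, ARRDC4, INSIG1 and TSPYL2.

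Among the genes below, FOS, the founding immediate-early gene and a subunit of the AP-1 transcription factor, had the largest contrast of the 20 named. One probe set read 5.76, 5.76 and 5.78 in mock, 5.20, 4.80 and 5.08 in cumate and 6.83, 6.67 and 6.83 in agonist arrays. The cumate arrays were lowest and the agonist arrays highest, with no overlap. Its contrast was −1.25 ± 0.09 (adjusted p = 0.00231), made up of −0.74 ± 0.11 against mock and −1.75 ± 0.11 against the agonist group. A second FOS probe set, at a lower level, disagreed: its contrast was −0.41 ± 0.17 (adjusted p = 0.311), it lay 0.06 below mock, and its arrays were not apart.

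Of 16 tested members of the immediate-early list, 5 were called lower (ARC, EGR1, FOS, FOSB and DUSP1) and 1 higher (IER3), which is 31.2% and 6.25% of the list against 0.428% and 0.906% of all tested genes. The list was chosen with earlier results of these data known, so these shares are a description. Its median contrast was −0.23, with median differences of 0.23 from mock and −0.81 from the agonist group. ARC, EGR1 and FOSB differed from mock by −0.04, −0.04 and 0.17 and from the agonist group by −2.91, −2.19 and −2.66. Their calls thus came with a distance to the agonist group, and FOS was the 1 member whose cumate arrays were all below the others. KLF6, a zinc-finger factor of the same list, lay above all others with a contrast of 0.27 ± 0.06 (adjusted p = 0.0854).

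PCDH9, a protocadherin of cell adhesion, read 6.24, 6.24 and 6.34 in mock, 5.56, 5.77 and 5.60 in cumate and 6.72, 6.69 and 6.71 in agonist arrays. The groups were fully separate in the same order as for FOS. The contrast was −0.85 ± 0.06 (adjusted p = 0.00231), with −0.63 ± 0.07 against mock and −1.06 ± 0.07 against the agonist group. NPTX1, a secreted pentraxin of synapses, had a contrast of −0.48 ± 0.06 (adjusted p = 0.0139), and FREM2, an extracellular matrix protein of embryonic basement membranes, one of −0.52 ± 0.06 (adjusted p = 0.0105). The −0.32 ± 0.07 of NPTX1 against mock did not pass by limma (adjusted p = 0.0794).

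Several genes of nutrient and sterol sensing were among the 20 below, and in ARRDC4, INSIG1 and DDIT4 the difference from mock did not pass. ARRDC4, an alpha-arrestin that lowers glucose uptake and is induced by the glucose-sensing factor MondoA, read 6.65, 6.73 and 6.59 in mock, 6.31, 6.45 and 6.24 in cumate and 7.83, 8.09 and 7.84 in agonist arrays. The cumate arrays lay just under mock, and the agonist arrays far above both. Its contrast was −0.95 ± 0.08 (adjusted p = 0.00320), but the −0.32 ± 0.10 against mock did not pass (adjusted p = 0.182). It was the 1 member called among the 6 tested MondoA targets (16.7% lower, against 0.428% of all tested genes), whose median contrast was −0.04.

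INSIG1, the ER protein that retains the SREBP escort protein and so restrains sterol synthesis, read 9.38, 9.30 and 9.32 in mock, 9.08, 9.09 and 9.25 in cumate and 10.26, 10.35 and 10.04 in agonist arrays. The gap between the highest cumate array and the lowest mock array was 0.050. The contrast was −0.63 ± 0.08 (adjusted p = 0.0162), with −0.19 ± 0.09 against mock (adjusted p = 0.387). It was the 1 member called lower among 10 tested genes of the cholesterol list (10%, against 0.428% of all tested genes), with 0 called higher. IDI1 and STARD4 of that list also lay below all others, with contrasts of −0.16 ± 0.06 (adjusted p = 0.272) and −0.24 ± 0.06 (adjusted p = 0.130), and the list's median contrast was 0.01. With INSIG1, 30% of the list lay below all others, against 1.64% of all tested genes.

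DDIT4, an inhibitor of mTORC1 induced by stress, read 6.16, 6.17 and 6.02 in mock, 5.82, 5.95 and 5.58 in cumate and 6.47, 6.68 and 6.85 in agonist arrays. The order was again cumate, mock, agonist, and the contrast of −0.61 ± 0.11 was close to the threshold (adjusted p = 0.0475). The call was lost in 12 of 13 alternatives, under both scalings, under the replicate block and with any single array left out, where the adjusted p ran from 0.0527 (without mock replicate 1) to 0.171 (without cumate replicate 3). DDIT4 was the 1 member called lower (7.14%, against 0.428% of all tested genes), with 0 called higher, among 14 tested genes of the ATF4 and amino-acid response. The median contrast of these genes was −0.20, with median differences of 0.16 from mock and −0.30 from the agonist group. SESN3, a sestrin that also restrains mTORC1, had a contrast of −0.55 ± 0.10 (adjusted p = 0.0467) and, unlike DDIT4, had the agonist group nearer. Its −0.37 ± 0.11 against the agonist group did not pass by limma (adjusted p = 0.0800). The call of SESN3 was lost in 10 of 13 alternatives, where the adjusted p reached 0.175.

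HILPDA, a lipid-droplet protein induced by hypoxia, was level in both other groups. It read 6.25, 6.22 and 6.18 in mock, 5.72, 5.75 and 5.57 in cumate and 6.25, 6.28 and 6.04 in agonist arrays. Mock and agonist arrays overlapped and the cumate arrays lay below by at least 0.283. Its contrast was −0.52 ± 0.08 (adjusted p = 0.0265), with −0.53 ± 0.09 against mock and −0.51 ± 0.09 against the agonist group. HILPDA lost its call in 8 of 13 alternatives, where the adjusted p reached 0.126.

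The microRNA gene MIR210, a further hypoxia-inducible transcript, had the same shape. Its probe set read 6.38, 6.40 and 6.45 in mock, 6.01, 5.92 and 5.83 in cumate and 6.49, 6.31 and 6.28 in agonist arrays. The contrast was −0.47 ± 0.07 (adjusted p = 0.0308), with −0.49 ± 0.08 against mock and −0.44 ± 0.08 against the agonist group. Among 10 tested genes of the hypoxia and glycolysis list, to which HILPDA and MIR210 do not belong, 0 passed the contrast in either direction, 0 were apart, and the median contrast was −0.13. The list's median difference was 0.07 from mock and −0.36 from the agonist group. Unlike HILPDA and MIR210, the list was thus not below mock by its median.

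MIR210 lies on chromosome 11 and was the 1 microRNA gene called among 6 above and 11 below. Its call was lost in 9 of 13 alternatives, under the replicate block and with any single array but mock replicate 1 left out. The adjusted p then reached 0.150. RefSeq (GRCh38.p14) gives the mature products below, shown with the seed, bases 2 to 8, in capitals because targets are recognised mainly by these bases. The 3p arm lies at chr11:568112-568133 and the 5p arm at chr11:568150-568171, both on the minus strand. The arms have different seeds, and neither seed occurs in the mature products compared for the other microRNA genes apart in the cumate group. The products of MIR4288, a gene below, were not among those compared.
hsa-miR-210-3p: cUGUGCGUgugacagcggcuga
hsa-miR-210-5p: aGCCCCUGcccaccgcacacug
The array signal comes from labelled RNA hybridised to the probe set of the gene, and it does not tell these products from their precursor.

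The other genes among the 20 below had contrasts from −0.68 to −0.31. They were ZNF711, a zinc-finger protein on the X chromosome, the small Cajal body RNA SCARNA10, BCL2L11, which encodes the death-promoting BCL2 relative BIM, CA2, a carbonic anhydrase, GLUL, the glutamine synthetase, the ubiquitin ligase MYLIP that degrades the LDL receptor, KLHL28 and KLHL15, which are kelch-repeat adaptors of ubiquitin ligases, TSPYL2 and ODC1, the first enzyme of polyamine synthesis. ZNF711 had the agonist group nearer, with −0.90 ± 0.10 against mock and −0.46 ± 0.10 against the agonist group. ODC1 and TSPYL2 had mock nearer, with −0.14 ± 0.06 and −0.19 ± 0.07 against it, neither of which passed (adjusted p = 0.308 and 0.236). SCARNA10, BCL2L11, CA2, GLUL, MYLIP, KLHL28 and KLHL15 also had mock nearer and did not pass against it by limma (adjusted p from 0.0633 to 0.143).

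ARRDC4 and INSIG1, both called and below, carry in their promoters the E-box CACGTG, a motif bound by basic helix-loop-helix factors, and the promoters are shown for that reason. Windows of 250 bases before the start of the gene were read from RefSeq (GRCh38.p14). Searched on both strands were CACGTG, its shorter part ACGTG, the AP-1 motif TGACTCA and an NF-kB consensus. TGACGTCA, GGAATG and the CArG box, a run of A or T between CC and GG, were searched as well. The ARRDC4 window is chr15:97960453-97960702 and the INSIG1 window chr7:155297628-155297877, both on the plus strand, with every match in capitals.
ARRDC4: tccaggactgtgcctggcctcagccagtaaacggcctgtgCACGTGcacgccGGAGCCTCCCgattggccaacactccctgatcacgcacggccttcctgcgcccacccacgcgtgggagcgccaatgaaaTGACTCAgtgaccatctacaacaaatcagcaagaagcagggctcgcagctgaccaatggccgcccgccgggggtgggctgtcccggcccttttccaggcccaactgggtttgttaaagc
INSIG1: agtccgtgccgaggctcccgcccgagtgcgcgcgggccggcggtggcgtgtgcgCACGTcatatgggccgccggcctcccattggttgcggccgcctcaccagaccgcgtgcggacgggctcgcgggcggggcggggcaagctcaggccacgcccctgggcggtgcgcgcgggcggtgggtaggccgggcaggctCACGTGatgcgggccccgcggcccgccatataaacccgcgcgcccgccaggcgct
CACGTG begins 210 bases before the start of ARRDC4 and 55 bases before that of INSIG1. ARRDC4 also holds TGACTCA at 119 bases and an NF-kB consensus at 198 bases before the start. INSIG1 holds CACGT, the reverse complement of ACGTG, at 196 bases. Of all 27305 promoter windows of this length, 6.49% hold CACGTG, 18.7% ACGTG, which includes every CACGTG, 4.16% TGACTCA and 9.57% the NF-kB consensus. These matches describe letters, not bound sites. Among the 9036 tested genes with a window, 8.57% hold CACGTG and 22.4% ACGTG, and among the 142 genes below with a window, 9.15% and 23.9%. The NF-kB consensus is held by 11.8% of these tested genes, 10.1% of the genes above and 16.9% of the genes below. For TGACTCA the shares are 2.98%, 3.98% and 3.52%. In the same order they are 2.59%, 2.11% and 1.41% for TGACGTCA and 9.65%, 10.1% and 11.3% for GGAATG. The CArG box is held by 1.10%, 1.17% and 0.704%. Only 569 of the 730 genes apart have a window in the table, under 80%, so this comparison over the set is void and no motif is read as a mark of the genes below.

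In the remaining lists, called members and members apart were mostly different genes. These lists too were chosen with earlier results of these data known, and their shares are descriptions. Of 12 tested SRF and YAP targets, 2 (16.7%, against 0.906% of all tested genes) were called higher, ANKRD1 and CCN2, and neither was apart; the median contrast was 0.26, and CCN2 lay 2.54 above mock and 0.66 below the agonist group. AJUBA, CNN2 and ZYX, which encode actin- and adhesion-associated proteins, had all cumate arrays above the others (25% of the list, against 4.48% of all tested genes), with contrasts of 0.49 ± 0.11, 0.50 ± 0.09 and 0.45 ± 0.08, and none passed (adjusted p = 0.105, 0.0565 and 0.0560). Of 14 ERK output and feedback genes, 2 (14.3%, against 0.906%) were called higher, IER3 and DUSP4, with 0 lower. DUSP4, a phosphatase of ERK, lay 1.14 above mock and 0.07 above the agonist group. ETV4, an ETS factor of the same list, was the 1 member above all others (7.14%, against 4.48%), with a contrast of 0.58 ± 0.11 (adjusted p = 0.0685).

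Over all tested genes, 0.906% were called higher, 0.428% were called lower, 4.48% lay above all others and 1.64% below. Among lists of growth and development, 1 of 18 mitosis genes (5.56%) was called higher, HMMR, a spindle protein, at 0.31 ± 0.05 (adjusted p = 0.0422). The kinesin gene KIF11 and the kinase gene PLK1 (11.1% of the list) were above all others without passing (0.29 ± 0.06 and 0.26 ± 0.07). Of 10 Notch genes, 2 (20%) were called lower, NRARP and DLL1, both far below the agonist group (−2.36 and −1.30) and 0.46 above and 0.13 below mock. HEY1 (10% of that list) was below all others with a contrast of −0.32 ± 0.10 (adjusted p = 0.194). Of 11 Wnt genes, 1 (9.09%) was called higher, the ubiquitin ligase gene RNF43, and AXIN2 (9.09%) was below all others without passing (−0.31 ± 0.08, adjusted p = 0.132). In 8 small nucleolar RNA hosts, SNHG5 (12.5%) was called lower, at −0.0017 against mock and −0.88 against the agonist group, and 0 were apart. Of 7 tested genes of ER chaperones and the unfolded protein response, 1 (14.3%) was called lower, SEL1L, an adaptor of ER-associated degradation, at 0.02 against mock and −0.82 against the agonist group. Of 8 cAMP and CREB targets 1 (12.5%) was called lower, FOSB, and 0 members of either list were apart. The transporter list had 1 gene tested, not called, and the replication-dependent histone list had 0 named.

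The lists of xenobiotic receptor, NRF2, PPAR and metallothionein genes, which respond to foreign compounds, fatty acids or metals, held 0 called members. Only 2 targets of the aryl hydrocarbon and xenobiotic receptors were tested, TIPARP and NFE2L2, and 0 passed or were apart. Of 6 NRF2 targets, 7 PPAR and fatty acid oxidation genes and 5 metallothioneins, 0 passed in either direction; the median contrasts were 0.04, 0.15 and −0.06. MT1X, a zinc-binding metallothionein, was below all others at −0.35 ± 0.08 (adjusted p = 0.112). In the heat-shock, p53, interferon, cytosolic ribosome, respiratory chain, DNA replication and fatty acid synthesis lists, 0 of 8, 9, 11, 13, 9, 21 and 10 tested genes passed by limma, with median contrasts from −0.04 to 0.09; HSPB1, RRM2B and UQCRC1 were above all others without passing. Few members of the lists have a named probe set, so these counts cover part of each pathway.

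**Figure D4:**
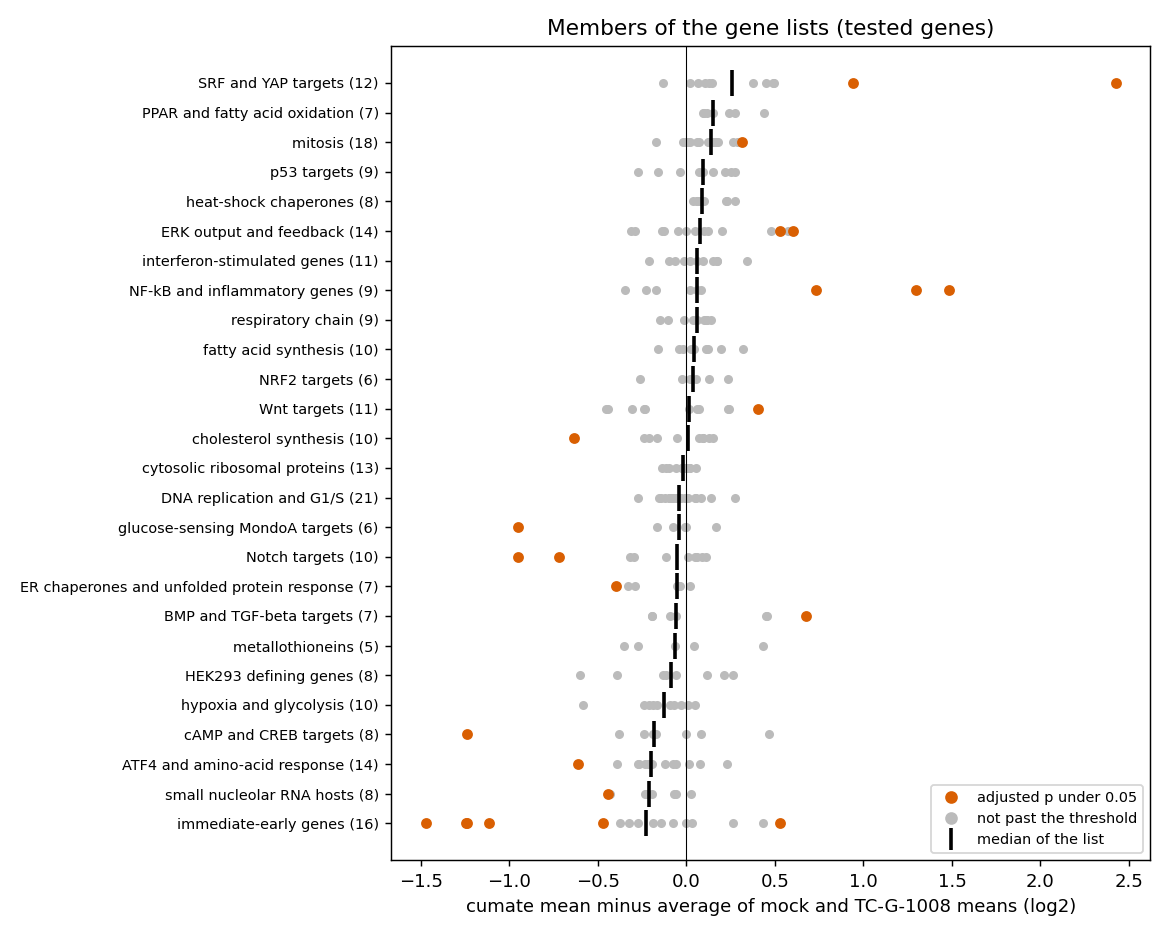
Cumate contrast (horizontal axis, log2) of each tested gene of the lists (vertical axis, number tested in brackets); orange points passed an adjusted p of 0.05, grey points did not, and black bars are list medians. The medians lie between −0.23 and 0.26. The farthest points above 0 are ANKRD1 in the SRF and YAP list and CD70 and CCL2 in the NF-kB and inflammatory list. Farthest below 0 are ARC, FOSB, FOS and EGR1 in the immediate-early list.

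At the edge of the rule, AK9 and SLC35D4 were just inside above, with the lowest cumate array ahead of the highest other array by at most 0.00023, and ACSF3 and AMPD3 just outside. MYO9B and CEP350 were just inside below, and AHNAK and ANKMY1 just outside. The contrasts of the 8 genes ran from −0.39 to 0.32 with adjusted p-values from 0.158 to 0.749. Of the 41 named called genes, 7 kept their call in every setting run for single genes (CD70, NEXN, ANXA3, NOG, FOS, PCDH9 and ARRDC4), 34 lost it in at least 1, most often when a cumate array was left out, and 0 reversed.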

How the data were processed

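RNA was extracted on columns with DNase digestion and hybridised as biotinylated cRNA, per the labels' protocols. Each deposited value is the log2 signal of 1 probe set, for which the submitters' processing notes name MAS5. The background correction, normalization and log step were not given in the sources used here, and the log2 scale was judged from the values (0.717 to 13.4977). Of 53617 probe sets, 16098 have 1 gene symbol in the platform annotation, all found by Entrez identifier in RefSeq (GRCh38.p14), and 37519 have none. Tested were the 33376 probe sets that exceeded the 40th percentile of an array in 3 or more of the 9 arrays, and a gene was represented by its probe set with the highest mean. limma 3.58.1 (R 4.3.3) was fitted to the 9 arrays with 3 group means, without covariates (6 residual and 2.12 prior degrees of freedom), two-sided, with Benjamini-Hochberg adjustment over all probe sets tested and a threshold of 0.05. Scripts were tested on simulated data. The number of arrays, 3 a group, limits the precision.

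The text names, in each direction, the 20 genes with the largest difference from the nearer group among those apart, called and above the median tested value (4.60; 55 genes above and 21 below qualified), up to 4 such members of each list, and 2 genes on either side of the edge of the rule. Other list members, genes called but not apart and the second FOS probe set were named after their values were seen. Members and lists (33 lists, 514 genes) were chosen with earlier results of these data known. Alternatives changed the filter, the scaling, the variance model, the handling of repeated rows and of genes with several probe sets, the call rule, a replicate block, and left out each array. The replicate numbers do not pair the samples: deviations of same-numbered arrays correlated between −0.10 and 0.06, and 0 of 9 pairs were over 0.1.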

Additional observations from a re-analysis of the deposited data

How the results depend on the processing

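The cumate contrast called 343 probe sets and 159 genes. Centring each array on its 75th percentile, quantile normalization and leaving out repeated rows kept the count of probe sets within 1.5 times (259, 281 and 328), and these scalings moved the median contrast to 0.02. Without a filter it called 187 probe sets and 86 genes, and with the filter at the median 252 genes. A trended, robust variance model gave 658 probe sets, 323 genes and 663 probe sets against mock, and array weights gave 740, 349 and 969. Requiring both pairwise differences gave 0 probe sets and 0 genes by limma (989 and 334 at an unadjusted p under 0.05). With 1 array left out at a time, the contrast called 48 to 776 probe sets and 23 to 250 genes, cumate minus mock 108 to 1323, cumate minus agonist 1509 to 3119, the mock contrast 1469 to 3341 and the agonist contrast 3627 to 4803; the highest contrast counts came without mock replicate 1. Probe sets apart then numbered 1201 to 1894 above and 831 to 1470 below, and genes 594 to 894 and 217 to 380; a smaller group makes the rule easier to meet. The cause of these moves was not tested.

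Whether the replicate numbers pair the samples is not known. With the replicate number as a block, the contrast called 76 probe sets (68 of the 343) and 28 genes. In that fit cumate minus mock called 150, cumate minus agonist 1819 and the mock contrast 1881, and 32 of 41 named genes lost their call. Limits are the 3 arrays a group, 6 residual degrees of freedom, signals near background for dim probe sets, the 37519 unnamed probe sets, and a log2 step and normalization of unknown kind before deposit.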

Other observations

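Genes of the mitochondrial ribosome were frequent among the genes above. Of 78 tested MRPL or MRPS symbols, 3 are pseudogenes and 2 long noncoding RNAs. Of the 73 protein-coding genes, which encode proteins of the large and small mitochondrial ribosomal subunits, 11 (15.1%) had all cumate arrays above the others, against 4.48% of all genes tested. By limma 0 of the 73 passed the contrast at an adjusted p of 0.05, and 23 had an unadjusted p under 0.05. The 11 were MRPL2, MRPL3, MRPL4, MRPL9, MRPL21, MRPL35, MRPL45, MRPL54, MRPS7, MRPS15 and MRPS35, with contrasts from 0.14 to 0.33. The median contrast of the 73 was 0.13 on the log2 scale, with 0.07 against mock and 0.17 against the agonist group, where all tested genes had 0.02 and 0.03. The pseudogene MRPL42P5 was below. This family was picked after the values were seen, so its counts are a description.

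The genes apart differed in kind between directions. Of 10280 protein-coding genes, 4.89% were above and 1.58% below, while of 474 microRNA genes 1.27% were above and 2.32% below, and of 815 long noncoding RNAs 2.09% and 1.84%. Protein-coding genes below had a median span of 46.8 kb in GRCh38.p14, against 28.0 kb for those above and 27.3 kb for all tested, and their median log2 level was 6.53, against 6.81 and 5.53. Of the probe sets above, 54.2% have a gene name, of those below 29.4%, and of all tested 38.4%. The 7 probe sets above and 29 below whose difference from the nearer group exceeded 1 had no name here, and 1 and 2 of them passed the contrast. Mock replicate 1 was the nearest other array for 2 of the 7 and 12 of the 29.

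Some genes apart lie next to each other among the tested genes. ZNF814, ZNF417 and ZNF418, zinc-finger genes on chromosome 19, were all below, with contrasts of −0.34, −0.37 and −0.42. Of 450 tested ZNF genes, 8 (1.78%) were below, near the 1.64% of all tested genes, and only ZNF711 of these was called lower. GOLGA6L10, GOLGA6L9 and GOLGA2P10 on chromosome 15 were also below, at −0.33, −0.35 and −0.19, but these copies are near-identical and their probes may share signal. Of 12 tested GOLGA genes, 4 (33.3%) were below and 0 were called. MRPL4 and ICAM1 are neighbours on chromosome 19, both above, at 0.33 and 0.73.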
